A study of Mus musculus with 6 samples.

Results

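Axon guidance ligands and receptors were examined in the epididymal (visceral) fat of mice on a normal diet (ND) or a high-fat diet (HFD). The genes were chosen by symbol and comprised the semaphorins, plexins, neuropilins, netrins, Unc5 receptors, Slits, Robos, ephrins and Eph receptors, together with Dcc and Neo1. Among 54532 genes counted, 71 protein-coding genes met this rule. Unc50 and Unc5cl matched the symbol pattern but are not guidance genes, so 69 guidance genes remained. The mice were male C57BL/6J, fed from 4 weeks of age for 16 weeks with ND (4.5% fat) or HFD (60% fat), and were otherwise untreated. RNA-Seq was carried out on 3 fat samples per diet, and the comparison addressed the presence of cancer-associated adipocyte-like cells in obese fat. Whole fat was sequenced, so a change in the number of cells of a type and a change of RNA per cell cannot be told apart. The sources used here do not say whether a sample was 1 mouse or a pool, and p-values measure the spread between these samples.

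The 6 libraries held between 16996896 and 18859320 counts. Adipocyte markers were abundant on both diets, with Fabp4, a fatty acid carrier, the highest of the 12 listed, of which 1 was called higher (Lep) and 2 lower (Slc2a4 and Acvr1c). By edgeR 5 had an unadjusted p under 0.05, and DESeq2 called 5, adding Plin1 and Pnpla2. Over all genes tested, 34.0% had an unadjusted p under 0.05 by edgeR, and DESeq2 called 19.1% of those it tested. Of the 12 log2 fold changes 9 were negative and 3 positive, with a median of -0.42. ND replicate 3 stood apart through epithelial and motile cilium genes, whose summed level was 210 CPM (reads scaled to library size with edgeR's TMM factors) against 12.8 and 15.3 in the other ND libraries and 14.2 to 17.3 under HFD. Among these genes Epcam, an epithelial adhesion gene, had 751 counts there and at most 4 in any other library. Of the 5 tested, 0 were called by edgeR, 1 had an unadjusted p under 0.05 and 0 were called by DESeq2. HFD replicate 3 had the highest summed macrophage markers (13942 CPM against 7345 and 5272 in HFD replicates 1 and 2, and 1908 to 2025 on ND). The same library had the lowest summed endothelial markers (954 CPM against 1657 to 1965 in the other 5). Its adipocyte sum (14198 CPM against 21466 to 31824), pericyte and smooth muscle sum (384 CPM against 578 to 1016) and mesothelial sum (228 CPM against 308 to 583) were the lowest as well.

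Guidance genes were first described in growing axons, which turn towards or away from a source of ligand. Semaphorins bind plexins, and most of the secreted class also need neuropilins, which VEGF uses as well. Netrins bind Dcc, Neo1 and the Unc5 receptors, Slits bind Robos, and ephrins on one cell bind Eph tyrosine kinases on the next. Outside the nervous system the same families act on blood vessels, on immune cells and on the shape of cells. In fat they are therefore read out from endothelial, stromal, immune and fat cells together.

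The diets were compared across all 15751 genes with enough counts (quasi-likelihood test, edgeR), and a gene was called at a Benjamini-Hochberg adjusted p-value under 0.05. Of the 71 genes, 57 were tested, of which 7 rose and 4 fell with HFD. The higher genes were Sema4d, Plxnc1, Plxnb2, Nrp2, Plxna4, Plxna1 and Robo1, and the lower genes were Efna2, Neo1, Sema4b and Sema6d. The called share was 19.3%, near the 15.9% of all genes tested, with 12.3% higher against 9.85% and 7.02% lower against 6.04%. The paper names axon guidance and EPHB-mediated signalling among the pathways enriched between these diets. Its pathway gene sets were not compared with the 71 genes here, and no set test was run. DESeq2 called 7 of the 71 genes lower, which added Efna4, Epha3 and Unc5c, and it called 8.42% of all genes it tested lower. The bases differ, because DESeq2 gave no adjusted p for Dcc, Epha5, Epha6, Epha8, Epha10, Ntn5, Robo3 and Unc5d. The median log2 fold change of the 57 genes was -0.12, against 0.01 over all genes tested. Among guidance genes, 6 of 25 tested receptors and 1 of 31 tested ligands were higher, while 1 receptor and 3 ligands were lower, and the difference between receptors and ligands was not tested. In each of the 11 called genes the HFD libraries did not overlap the ND libraries. Such a gap was seen in 18 of the 57 genes (31.6%), below the 40.9% of all genes tested. Leaving out 1 library at a time gave from 3 to 6 higher and from 0 to 8 lower genes, and the share of all genes called in each fit is not given here. Only 3 genes were called in all 6 of these fits, namely Sema4d, Plxnc1 and Plxna4.

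**Figure D1:**
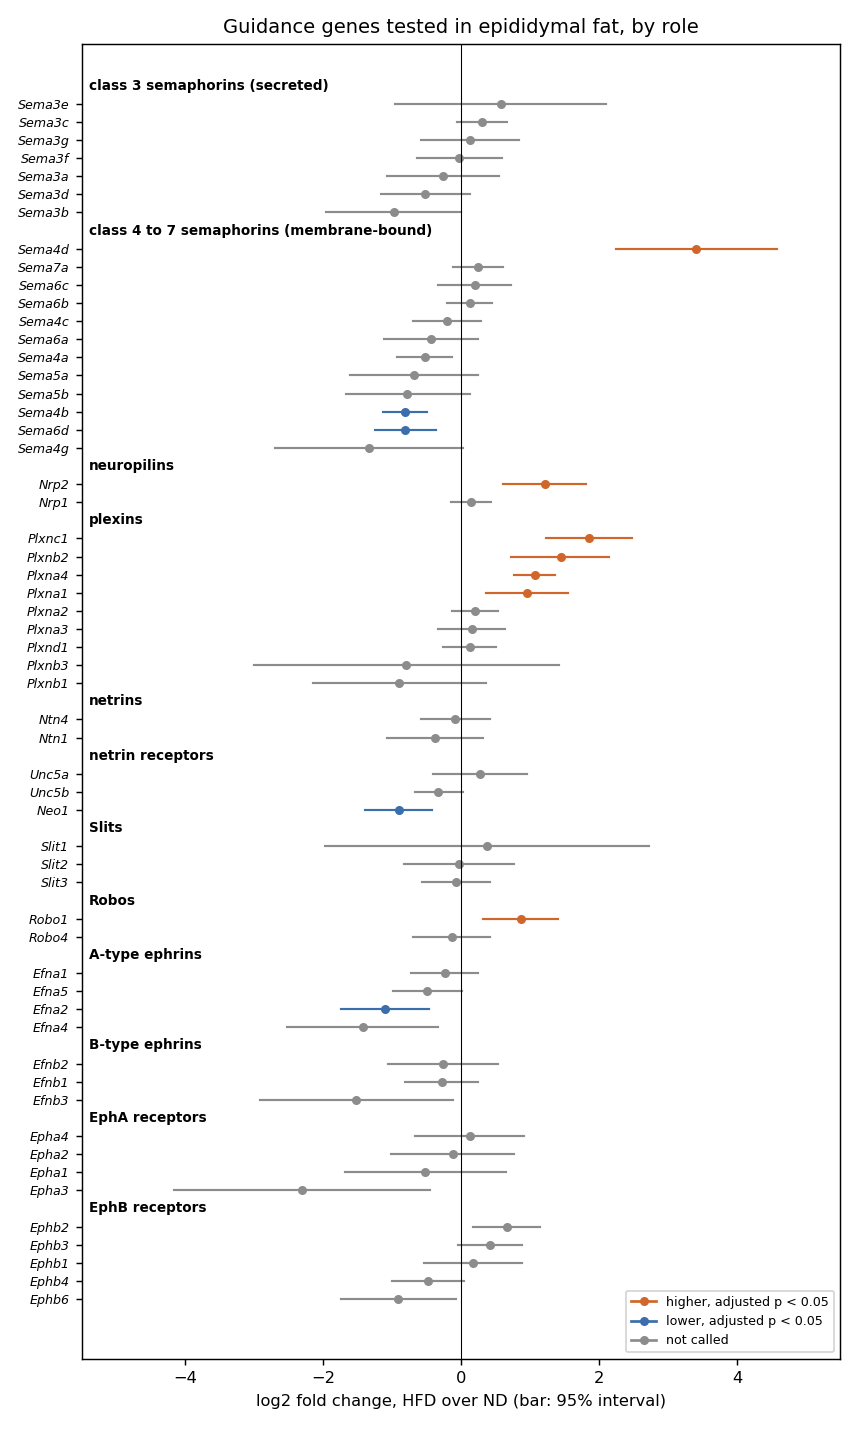
Log2 fold change of each tested guidance gene, HFD over ND, grouped by role; points are edgeR estimates and bars 95% intervals, with called genes in colour. The 4 called plexins and Nrp2 lie to the right of 0, Sema4d lies farthest right at 3.41, and the 4 called lower genes lie between -1.11 and -0.81.

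Sema4d (CD100), a membrane-bound semaphorin known from T lymphocytes and other immune cells, had the largest change. It lies on chromosome 13 of GRCm38 from 51685529 to 51793747 (ENSMUSG00000021451). Its level was 7.40, 5.63 and 10.4 CPM in ND replicates 1 to 3 and 71.7, 38.5 and 140 CPM in HFD replicates 1 to 3. The lowest HFD library was thus well above the highest ND library, and the HFD libraries differed widely from each other. The fold change was 10.7, a log2 fold change of 3.41 with a standard error of 0.50 (adjusted p = 0.00939, edgeR). In the fits without 1 library the log2 fold change ran from 2.80 to 3.76, with adjusted p-values of at most 0.0498. By FPKM, which accounts for gene length, Sema4d ranked 13 of 20 semaphorins on ND (1.03 ± 0.309 FPKM, SD, n = 3) and 4 of 20 under HFD (10.9 ± 6.75 FPKM, SD, n = 3). In HFD replicate 3 it was the highest of all semaphorins.

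The other membrane-bound semaphorins that passed, Sema4b and Sema6d, were lower by smaller amounts. Sema4b (ENSMUSG00000030539, chromosome 7 from 80186841 to 80226527), a class 4 relative of Sema4d, had 19.9, 18.6 and 22.2 CPM under ND and 11.9, 11.8 and 10.9 CPM under HFD. In log2 terms the change was -0.81 (standard error 0.14, adjusted p = 0.0125, edgeR), and libraries of the same diet lay close together. Without ND replicate 1 or HFD replicate 1 it missed the threshold, with adjusted p-values of 0.0563 to 0.0575. Sema6d (ENSMUSG00000027200, chromosome 2 from 124089969 to 124667770), a transmembrane ligand of Plxna1, had 42.4, 54.0 and 41.7 CPM under ND and 31.2, 27.6 and 20.1 CPM under HFD. This amounted to -0.81 in log2 (standard error 0.19, adjusted p = 0.0321, edgeR), and HFD replicate 3 was the lowest library. This call was lost without any of the 3 ND libraries or without HFD replicate 1 (adjusted p = 0.0642 to 0.102). Sema4a, which acts on T cells and vessels, had 42.6, 32.9 and 42.5 CPM under ND and 27.9, 31.6 and 22.3 CPM under HFD but did not pass (adjusted p = 0.0753, edgeR). Without HFD replicate 2 it passed at 0.0387, in 1 of the 6 fits with 1 library left out.

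**Figure D2:**
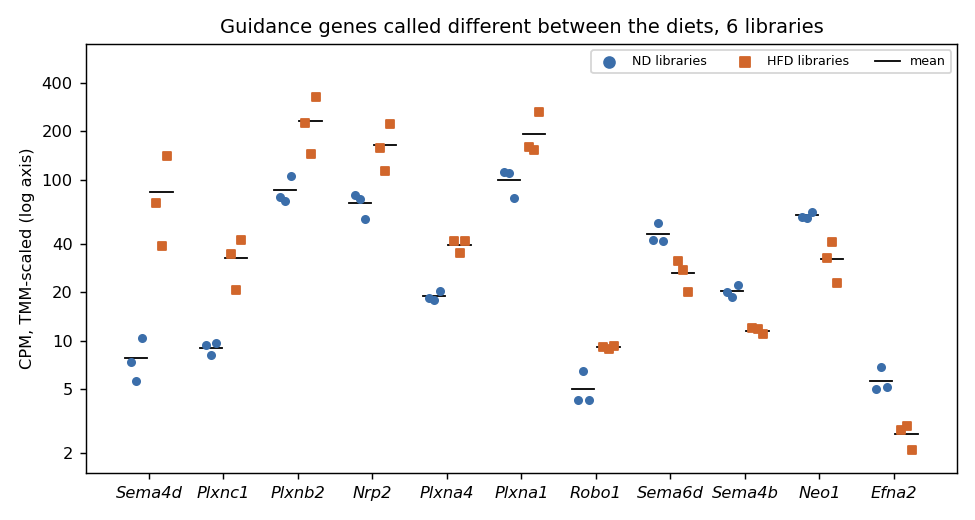
Level of the 11 called guidance genes in each of the 6 libraries, in TMM-scaled CPM on a log axis, with circles for ND, squares for HFD and a line at each mean. No gene has an HFD library within the range of the ND libraries, and Sema4d shows the widest gap, from 10.4 CPM in the highest ND library to 38.5 CPM in the lowest HFD library.

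The receptors of Sema4d were read beside it, and their changes were not tested against each other. Plxnb1, the high-affinity receptor of Sema4d, had 11.2, 8.00 and 35.6 CPM under ND and 11.6, 9.82 and 8.01 CPM under HFD. ND replicate 3 alone was high, and the log2 fold change went from -0.90 with all libraries (adjusted p = 0.281, edgeR) to 0.00 without that library (standard error 0.26). Cd72, the receptor of Sema4d on B cells and myeloid cells, rose from 1.73, 2.73 and 3.60 CPM to 29.1, 14.8 and 61.3 CPM (log2 fold change 3.70, standard error 0.56, adjusted p = 0.0102, edgeR). Plxnb2, which binds Sema4d and other class 4 semaphorins, rose as well. It lies on chromosome 15 from 89155549 to 89180788 (ENSMUSG00000036606) and had 78.7, 73.8 and 105 CPM under ND and 225, 145 and 328 CPM under HFD. This was a 2.71-fold rise (log2 fold change 1.44, standard error 0.30, adjusted p = 0.0234, edgeR). All 3 HFD libraries were above all 3 ND libraries, with HFD replicate 3 the highest. The adjusted p was 0.0526 to 0.0929 without any of the ND libraries or without HFD replicate 1. Sema4c and Sema4g, other class 4 ligands of Plxnb2, did not pass. Sema4c had 37.3, 32.5 and 33.1 CPM under ND and 35.4, 33.1 and 20.4 CPM under HFD, which overlapped. Sema4g was low, with 55, 31 and 101 counts under ND and 20, 37 and 10 counts under HFD (adjusted p = 0.153, edgeR). It passed in 1 of the 6 fits with 1 library left out, at 0.0494 without HFD replicate 2.

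Plxnc1, the receptor of Sema7a on myeloid cells, lies on chromosome 10 from 94790866 to 94944835 (ENSMUSG00000074785). It had 9.34, 8.18 and 9.60 CPM under ND and 34.6, 20.7 and 42.4 CPM under HFD, so every HFD library had more than any ND library. The rise was 3.60-fold (log2 fold change 1.85, standard error 0.26, adjusted p = 0.00918, edgeR), and with 1 library left out the adjusted p was at most 0.0472. Its ligand Sema7a, a GPI-anchored semaphorin, had 37.6, 43.4 and 38.3 CPM under ND and 53.7, 50.0 and 37.8 CPM under HFD. The diets overlapped in Sema7a, and the 95% interval of its log2 fold change was -0.12 to 0.61.

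Plxna4 and Plxna1 of the A class were higher, and both are receptors through which secreted and class 6 semaphorins signal. Plxna4 (ENSMUSG00000029765, chromosome 6 from 32144268 to 32588192) had 18.4, 17.8 and 20.4 CPM under ND and 41.6, 35.2 and 41.7 CPM under HFD. The libraries of each diet lay close together, and the 2.09-fold rise had the smallest adjusted p of the guidance genes (log2 fold change 1.07, standard error 0.13, adjusted p = 0.00624, edgeR). It was called in all 6 fits with 1 library left out, at adjusted p-values of at most 0.0408. Plxna1 (ENSMUSG00000030084, chromosome 6 from 89316314 to 89362620), a receptor for Sema6d, had 112, 110 and 76.7 CPM under ND and 161, 154 and 264 CPM under HFD. In log2 terms the change was 0.96 (standard error 0.25, adjusted p = 0.0451, edgeR), and it was lost without any library except HFD replicate 2 (adjusted p = 0.0587 to 0.123). Plxna2 and Plxna3 did not pass, with intervals of the log2 fold change from -0.13 to 0.54 and from -0.33 to 0.64. Plxnd1, a receptor of blood vessels, had 256, 231 and 180 CPM under ND and 232, 251 and 242 CPM under HFD. Its diets overlapped and the interval was -0.26 to 0.50.

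By FPKM, Plxnd1 was the highest of all guidance genes on ND (30.9 ± 5.63 FPKM, SD, n = 3) and on HFD (33.2 ± 1.36 FPKM, SD, n = 3). Plxnb2 ranked 11 of 69 on ND (11.3 ± 2.10 FPKM, SD, n = 3) and 2 of 69 under HFD (30.2 ± 11.9 FPKM, SD, n = 3), and in HFD replicate 3 it passed Plxnd1. On HFD the spread of Plxnb2 covered the level of Plxnd1. The summed level of the 9 plexins was 57.9 to 67.2 FPKM in the ND libraries and 92.7, 82.7 and 118 FPKM in the HFD libraries.

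**Figure D3:**
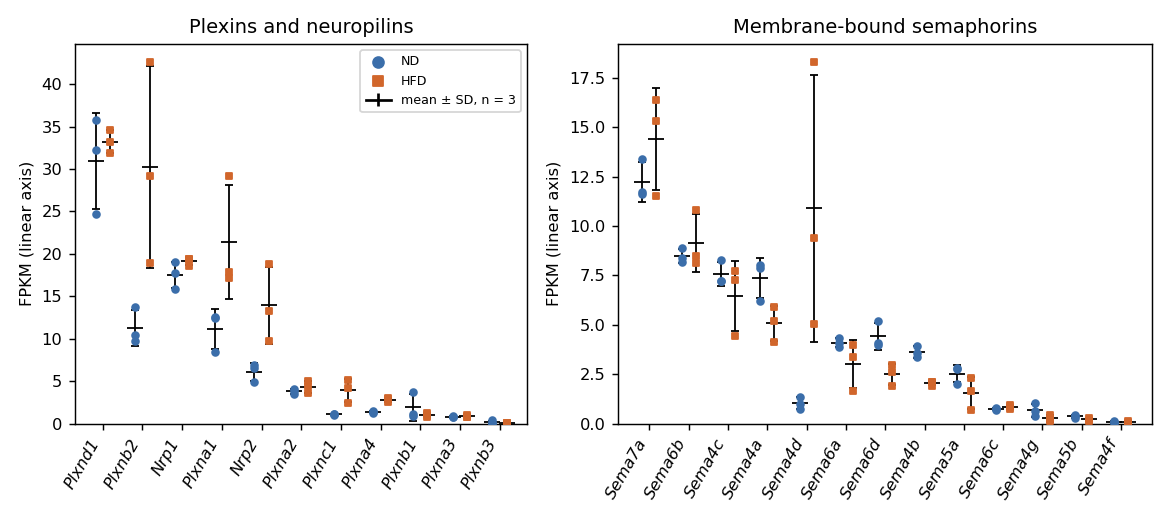
FPKM of plexins and neuropilins (left) and of membrane-bound semaphorins (right) in each library, on linear axes, with the mean and SD of 3 libraries per diet. On HFD Plxnb2 reaches the level of Plxnd1, and Sema4d spreads from 5.05 to 18.3 FPKM while staying at 1.36 FPKM or less on ND.

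The neuropilins differed between their 2 members. Nrp2 (ENSMUSG00000025969, chromosome 1 from 62703285 to 62818695), the co-receptor of Sema3f and VEGF-C, had 80.2, 76.3 and 57.3 CPM under ND and 157, 114 and 222 CPM under HFD. The rise was 2.31-fold (log2 fold change 1.21, standard error 0.26, adjusted p = 0.0243, edgeR), and the diets did not overlap. Without any of the ND libraries or without HFD replicate 1 the adjusted p was 0.0745 to 0.0847. Nrp1, the co-receptor of Sema3a and VEGF-A, had 183, 170 and 155 CPM under ND and 189, 189 and 182 CPM under HFD. Its interval of -0.15 to 0.43 was below the estimate for Nrp2, although the 2 changes were not tested against each other.

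Of the 7 secreted semaphorins, all of which were tested, 0 were called in either direction. An unadjusted p under 0.05 was found in 1 of them, Sema3b, and in 34.0% of all genes tested. DESeq2 also called 0. Sema3g, which is made by arterial endothelium, was the highest by length with 19.9 ± 1.36 FPKM under ND and 21.6 ± 8.79 FPKM under HFD (SD, n = 3 each). In CPM it had 92.6, 91.9 and 83.0 on ND and 115, 125 and 52.1 under HFD, so the HFD libraries lay on both sides of the ND libraries. Sema3c, a ligand of both neuropilins, had 70.8, 92.9 and 83.8 CPM under ND and 92.8, 119 and 93.7 CPM under HFD (95% interval of the log2 fold change -0.06 to 0.66). Sema3f, the ligand of Nrp2, had 34.0, 33.1 and 43.3 CPM under ND and 46.4, 39.3 and 22.7 CPM under HFD (interval -0.64 to 0.59). Sema3a, a ligand of Nrp1, and Sema3e, a ligand of Plxnd1, were low at 2.20 to 3.35 CPM and 0.870 to 2.16 CPM under ND, and at 1.61 to 2.90 CPM and 0.864 to 4.52 CPM under HFD. The median log2 fold change of the class was -0.03.

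Every gene called higher had its lowest HFD value in replicate 2 and its highest in replicate 3 (7 of 7), the order of the summed macrophage markers. The same order held in 73.0% of all genes called higher. The Schwann cell and nerve sum had this order too (89.4, 85.5 and 113 CPM in HFD replicates 1 to 3). The adipocyte sum had the reverse order (21466, 31824 and 14198 CPM), so these markers cannot be told apart by the order of the libraries. In Robo1 and Plxna4 HFD replicates 1 and 3 were nearly equal (9.07 and 9.22 CPM, and 41.6 and 41.7 CPM). In unscaled counts replicate 1 was above replicate 3 in both (166 against 160, and 762 against 724). The macrophage sum was 7345 CPM in replicate 1 and 13942 CPM in replicate 3. The 14 macrophage markers had positive log2 fold changes, with a median of 1.76, and 12 of them were called higher. T and B lymphocyte markers summed to 16.3 to 29.2 CPM under ND and 21.1 to 33.8 CPM under HFD, with 0 of 10 called by edgeR, 0 at an unadjusted p under 0.05 and 0 by DESeq2. Of the genes called lower, 4 of 4 were lowest in HFD replicate 3, as were 69.3% of all genes called lower. The part of the macrophage, adipocyte or nerve markers in the rise of the guidance genes was not tested.

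Neo1 (neogenin), a relative of Dcc that binds netrins and RGM proteins, was lower on HFD. It lies on chromosome 9 from 58874687 to 59036441 (ENSMUSG00000032340) and had 59.0, 58.1 and 63.4 CPM under ND and 32.8, 41.0 and 22.8 CPM under HFD. The ND libraries were close to each other and the 3 HFD libraries all lay below them. The level was 1.87-fold lower (log2 fold change -0.90, standard error 0.21, adjusted p = 0.0291, edgeR), and it missed the threshold without any of the ND libraries or without HFD replicate 1 (adjusted p = 0.0810 to 0.104). Rgma, its repulsive ligand, was lower as well, with 56.1, 78.1 and 61.9 CPM under ND and 36.6, 41.2 and 25.9 CPM under HFD (log2 fold change -0.92, standard error 0.20, adjusted p = 0.0269, edgeR).

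The netrins themselves did not pass. Ntn1, the best known chemoattractant of the family, had 46.7, 30.5 and 55.0 CPM under ND and 30.7, 47.0 and 24.0 CPM under HFD, with overlap and an interval of -1.08 to 0.32. Ntn4, a netrin of basement membranes and the highest netrin by FPKM, had 30.2, 24.3 and 28.1 CPM under ND and 24.4, 34.1 and 19.4 CPM under HFD (interval -0.59 to 0.42). Unc5b, the Unc5 receptor of blood vessels, had 28.4, 23.0 and 28.0 CPM under ND and 24.1, 19.8 and 19.5 CPM under HFD (interval -0.67 to 0.02). Unc5a was the netrin receptor with the highest FPKM, 8.23 over the 6 libraries. Its exons overlap those of Hk3, a hexokinase gene on the other strand that went from 168, 149 and 163 counts under ND to 1835, 874 and 3998 counts under HFD. The level of Unc5a is therefore uncertain, and it had 28.3, 44.8 and 19.5 CPM under ND and 41.5, 38.5 and 31.3 CPM under HFD. Dcc had 0 counts in the 6 libraries.

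Unc5c, a netrin receptor of repulsion, had too few counts for the main test, with 14, 12 and 10 counts under ND and 2, 1 and 1 counts under HFD. Over the 3 libraries of each diet the scaled ratio of ND to HFD was 8.43, with a 95% interval of 3.02 to 32.6 that covers counting error only. Without the filter on low counts edgeR called it lower (adjusted p = 0.0329), and DESeq2 did so too (adjusted p = 0.0259).

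Among Slits and Robos, Robo1 was the 1 gene called, and by a small margin. It lies on chromosome 16 from 72308306 to 73046095 (ENSMUSG00000022883) and had 4.26, 6.50 and 4.25 CPM under ND and 9.07, 8.91 and 9.22 CPM under HFD. The HFD libraries were nearly equal and all above ND, for a 1.81-fold rise (log2 fold change 0.86, standard error 0.23, adjusted p = 0.0458, edgeR). It was lost when any 1 library was left out (adjusted p = 0.0515 to 0.158). Its level by length was low, 0.308 FPKM under ND and 0.551 FPKM under HFD. Robo4, the Robo of endothelium, was higher in level, at 76.3, 73.4 and 73.1 CPM under ND and 80.1, 80.1 and 42.3 CPM under HFD. Of the ligands, Slit3 was by far the highest (24.6 ± 2.73 FPKM under ND and 23.1 ± 6.32 FPKM under HFD, SD, n = 3 each), and it had 164, 131 and 147 CPM under ND and 136, 179 and 103 CPM under HFD (interval of the log2 fold change -0.57 to 0.42). Slit2 had 14.1, 6.21 and 10.7 CPM under ND and 7.70, 9.27 and 13.5 CPM under HFD, which overlapped.

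All 7 tested ephrins lay below 0 in log2 fold change (-1.52 to -0.24), as did 7789 of the 15751 genes tested. Without HFD replicate 3, Efnb2, Efnb1 and Efna1 had 0.05, -0.07 and -0.08. In that fit Efna5, Efna2, Efna4 and Efnb3 had -0.34, -0.99, -1.22 and -1.47. With all libraries 1 of the 7 ephrins passed the test. This was Efna2 (ENSMUSG00000003070, chromosome 10 from 80179482 to 80190010), a GPI-anchored ligand of EphA receptors, with 4.97, 6.84 and 5.10 CPM under ND and 2.79, 2.95 and 2.07 CPM under HFD. The diets did not overlap, and the level was 2.16-fold lower (log2 fold change -1.11, standard error 0.27, adjusted p = 0.0354, edgeR). It was lost without any library except HFD replicate 2 (adjusted p = 0.0631 to 0.112). Efna4 had 45, 25 and 75 counts under ND and 16, 22 and 11 counts under HFD and did not pass (adjusted p = 0.0782, edgeR), while DESeq2 gave 0.0494. Efnb1, a transmembrane ephrin, was the highest of the ephrins, with 83.4, 78.8 and 72.5 CPM under ND and 69.7, 80.8 and 42.2 CPM under HFD. Efna1, a ligand of Epha2 and the highest A-type ephrin, had 29.8, 24.5 and 21.6 CPM under ND and 25.1, 23.3 and 15.9 CPM under HFD (interval -0.73 to 0.24). The A-type ephrins summed to 20.5 to 26.0 FPKM under ND and 12.5 to 19.1 FPKM under HFD.

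Of the 9 tested Eph receptors, 0 were called by edgeR, and 3 had an unadjusted p under 0.05, namely Ephb2, Epha3 and Ephb6. Such a p was found in 31.6% of the 57 tested symbol matches and in 34.0% of all genes tested. DESeq2 called Epha3. Ephb6, an Eph receptor that lacks kinase activity, had 272, 217 and 340 counts under ND and 115, 209 and 83 counts under HFD (log2 fold change -0.91, adjusted p = 0.123, edgeR). In 1 of the 6 fits with 1 library left out, that without HFD replicate 2, it was called lower (log2 fold change -1.41, adjusted p = 0.00639, edgeR). Ephb2, which binds B-type ephrins, had 13.9, 19.1 and 13.4 CPM under ND and 21.0, 30.1 and 22.0 CPM under HFD, with every HFD library above ND (log2 fold change 0.66, standard error 0.21, adjusted p = 0.0702, edgeR). Ephb4, the receptor of veins and partner of Efnb2, was the highest Eph receptor by length and had 88.3, 75.3 and 76.5 CPM under ND and 64.3, 69.7 and 38.4 CPM under HFD. All 3 HFD libraries were below ND, but it did not pass (log2 fold change -0.48, standard error 0.22, adjusted p = 0.177, edgeR). Efnb2, the arterial ephrin that binds Ephb4, had 44.3, 39.2 and 44.1 CPM under ND and 49.5, 39.7 and 17.2 CPM under HFD. Epha3 had 67, 16 and 42 counts under ND and 9, 13 and 1 counts under HFD (adjusted p = 0.0874 by edgeR and 0.0336 by DESeq2). Epha2, the receptor of Efna1, had 19.0, 18.6 and 14.6 CPM under ND and 22.0, 18.9 and 7.08 CPM under HFD, which overlapped.

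The 250 bases before the start site are printed for the 2 genes with the largest rise and the 2 with the largest fall among those called, so that the regulatory sequence of genes that moved in opposite directions can be compared. They are from RefSeq (GRCm38.p6) and written 5′ to 3′ on the strand of the gene. Capitals mark matches on either strand to the GC box (GGGCGG), the CCAAT box (CCAAT) and AP-1-like letters (TGANTCA). The last pattern is loose, because N stands for any base. Sema4d has 3 start sites in that table, and the one shared with 2 GENCODE transcripts is shown. That start lies inside the gene, which begins at 51793747 on the minus strand. The sequences before the other Sema4d starts are not shown, and which start this fat uses was not tested.
Sema4d, chr13:51748811-51749060, minus strand: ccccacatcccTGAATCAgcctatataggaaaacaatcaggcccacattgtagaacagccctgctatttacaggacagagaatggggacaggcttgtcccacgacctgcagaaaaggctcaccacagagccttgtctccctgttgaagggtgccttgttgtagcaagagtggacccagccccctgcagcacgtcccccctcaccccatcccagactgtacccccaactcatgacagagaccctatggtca
Plxnc1, chr10:94944846-94945095, minus strand: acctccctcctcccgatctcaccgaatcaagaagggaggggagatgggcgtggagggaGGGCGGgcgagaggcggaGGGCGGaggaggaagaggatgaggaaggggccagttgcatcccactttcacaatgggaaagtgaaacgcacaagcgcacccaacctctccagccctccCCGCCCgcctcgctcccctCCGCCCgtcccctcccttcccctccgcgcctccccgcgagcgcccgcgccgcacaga
Efna2, chr10:80179232-80179481, plus strand: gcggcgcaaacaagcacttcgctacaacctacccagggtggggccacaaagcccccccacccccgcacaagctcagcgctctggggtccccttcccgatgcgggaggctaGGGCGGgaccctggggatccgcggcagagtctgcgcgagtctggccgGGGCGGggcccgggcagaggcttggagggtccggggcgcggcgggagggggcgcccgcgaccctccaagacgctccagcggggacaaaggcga
Neo1, chr9:59036442-59036691, minus strand: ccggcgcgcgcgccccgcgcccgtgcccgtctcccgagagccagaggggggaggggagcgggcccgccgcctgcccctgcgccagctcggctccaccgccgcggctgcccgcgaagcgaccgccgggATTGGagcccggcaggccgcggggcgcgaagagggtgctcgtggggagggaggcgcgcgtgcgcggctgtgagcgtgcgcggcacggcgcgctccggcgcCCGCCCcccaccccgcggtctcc

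The Sema4d sequence holds 2 CpG dinucleotides and 55.2% G and C, without a GC box or CCAAT box. It has 1 match to the loose AP-1-like pattern, TGAATCA with A in the middle, 239 bases before the start. Plxnc1 holds 22 CpG dinucleotides and 4 GC boxes, Efna2 25 CpG dinucleotides and 2 GC boxes, and Neo1 45 CpG dinucleotides, 1 GC box and 1 CCAAT box. The Plxnc1 start was shared with 0 GENCODE transcripts, and those of Efna2 and Neo1 with 1 each. The median over the 32851 promoters of the table was 6 CpG dinucleotides and 52.4% G and C, and over the 77 promoters of the guidance genes and the other symbol matches it was 16 and 64.4%. In the same window a GC box was found in 55 of the 77 promoters listed for 61 of the 71 genes (71.4%), against 32.7% of all promoters in the table. The loose AP-1-like pattern occurred in 3.9% of these promoters and 6.7% of all promoters, and CCAAT in 28.6% and 33.8%. The table of all promoters includes noncoding genes, and a match describes letters and no bound factor. None of the 4 printed sequences held the E-box letters CACGTG, found in 6.0% of all promoters. None held the TATA box letters TATAAA, found in 12.4%. The letters of a PU.1 site, GAGGAAGT, were also absent from the 4 and were found in 2.4% of all promoters.

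In several guidance genes a single library stood apart from the others of its diet. HFD replicate 3 was the lowest of the 6 libraries in 33 of the 57 tested genes (57.9%), against 28.4% of all genes tested. Sema3g, Efnb2, Sema5a, Sema6a, Epha2 and Epha1 had at most 0.490 times the level of the nearest other HFD library there. The exons of Epha1 overlap those of Zyx on the other strand, so its level is uncertain. Sema5a, a transmembrane semaphorin, had 31.0, 43.0 and 12.6 CPM under HFD, and Sema6a, a ligand of Plxna2 and Plxna4, had 34.8, 29.5 and 14.5 CPM. Without that library the log2 fold change of Sema3g went from 0.13 to 0.41 (adjusted p = 0.0619, edgeR), that of Efnb2 from -0.26 to 0.05 and that of Robo4 from -0.14 to 0.09. All 12 endothelial markers lay below 0 in log2 fold change (-2.45 to -0.08), and 0 were called by edgeR, with 2 at an unadjusted p under 0.05 and 1 called by DESeq2, Prox1. The adipocyte, pericyte and mesothelial sums were lowest in that library too, and the part of any of these markers in its low values was not tested.

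ND replicate 3, the library with epithelial and cilium genes, was more than 2 times the level of either other ND library in Sema3b, Plxnb1, Plxnb3, Efnb3, Slit1 and Unc5cl. Unc5cl, the non-guidance gene, had 0, 3 and 76 counts under ND and 2 counts in each HFD library. Sema3b had 213, 146 and 526 counts under ND and 131, 155 and 121 under HFD, and its log2 fold change went from -0.98 to -0.39 without ND replicate 3. Plxnb3 had 6, 3 and 51 counts under ND and 12, 6 and 13 under HFD, and its log2 fold change turned from -0.80 to 1.18. Efnb3 went from -1.52 to -0.69 and Slit1 from 0.37 to 2.11, and these genes did not pass with or without that library. Whether the epithelial genes share a source with these values was not tested.

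**Figure D4:**
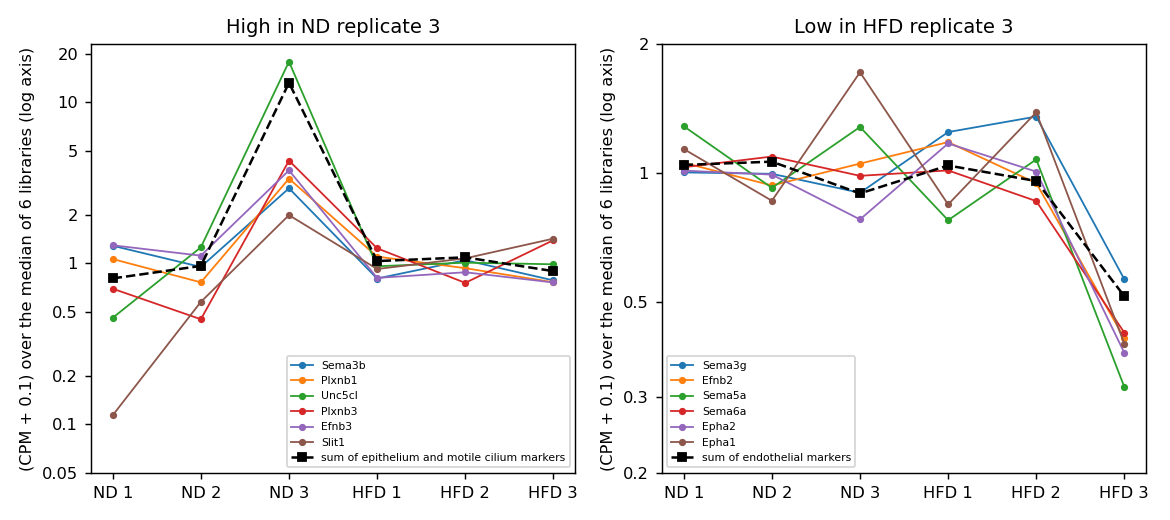
Guidance genes far above the other ND libraries in ND replicate 3 (left) and far below the other HFD libraries in HFD replicate 3 (right), with Unc5cl on the left. Each gene is shown as (CPM + 0.1) over its median in the 6 libraries on a log axis, and the dashed line is the summed CPM of a marker list over its median. The epithelial sum rises to 210 CPM in ND replicate 3, and the endothelial sum falls to 954 CPM in HFD replicate 3.

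The 14 untested genes had low counts. Epha6 and Dcc had 0 counts in every library, and Epha5, Epha8, Epha10, Ntn5 and Robo3 had at most 2 in any library. With 3 counts as the floor, equal to between 0.150 and 0.181 CPM, a difference in these 7 genes was not detectable at this depth. Robo2 had 13 counts in all on ND and 5 under HFD, Epha7 had 17 and 3, Efna3 had 33 and 12, Sema4f had 26 and 17, and Unc5d had 5 and 1.

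Genes that work with these receptors were described with 3 lists of co-receptors and other ligands, intracellular signalling proteins, and proteases or phosphatases. Of 79 tested genes, 19 were higher (24.1%) and 4 were lower (5.06%), against 9.85% and 6.04% of all genes tested, and their median log2 fold change was 0.08. The lists were written by hand with earlier results of these data known, so these shares cannot show an enrichment. Among co-receptors and other ligands 6 of 24 were higher and 2 were lower. The heparan sulphate proteoglycans Gpc1, Sdc3 and Sdc1, which hold ligands at the cell surface, had log2 fold changes of 1.70, 1.74 and 2.15. Sdc3 had 124, 120 and 113 CPM under ND and 405, 247 and 548 CPM under HFD. Cntn2, an axonal adhesion protein, had 3, 1 and 12 counts under ND and 71, 40 and 99 counts under HFD (log2 fold change 3.80, adjusted p = 0.0172, edgeR). Met, the receptor of hepatocyte growth factor and a partner of B plexins, was lower, with 73.4, 81.9 and 69.8 CPM under ND and 24.5, 31.8 and 23.6 CPM under HFD. In log2 terms the change was -1.49 (standard error 0.15, adjusted p = 0.00429, edgeR).

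Of the intracellular signalling genes, 12 of 45 were higher and 1 was lower. Mical2, an oxidoreductase that takes actin filaments apart, had 23.4, 18.2 and 19.3 CPM under ND and 71.4, 55.0 and 119 CPM under HFD (log2 fold change 2.01, adjusted p = 0.00918, edgeR). Vav3, a guanine nucleotide exchange factor, had a log2 fold change of 1.73, and Rasa1, a Ras GTPase-activating protein that binds EphB receptors, had 1.19. Fes, a tyrosine kinase of myeloid cells that acts below plexins, had 1.30, and Tiam1, a Rac exchange factor, had 0.66. Farp1, an exchange factor that acts with A-class plexins, was lower, with 34.8, 52.6 and 39.0 CPM under ND and 22.1, 24.5 and 16.2 CPM under HFD (log2 fold change -1.01, adjusted p = 0.0234, edgeR). In the last list of 10 genes, 1 rose and 1 fell. Ptpro, a receptor phosphatase that acts on Eph receptors, had a log2 fold change of 1.85, and Ptprf, a receptor phosphatase of epithelia and axons, had -1.04. Without 1 library the number of higher partner genes ranged from 4 to 27, with 4 without ND replicate 1 or 2, 5 without HFD replicate 1 and 8 without ND replicate 3.

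**Figure D5:**
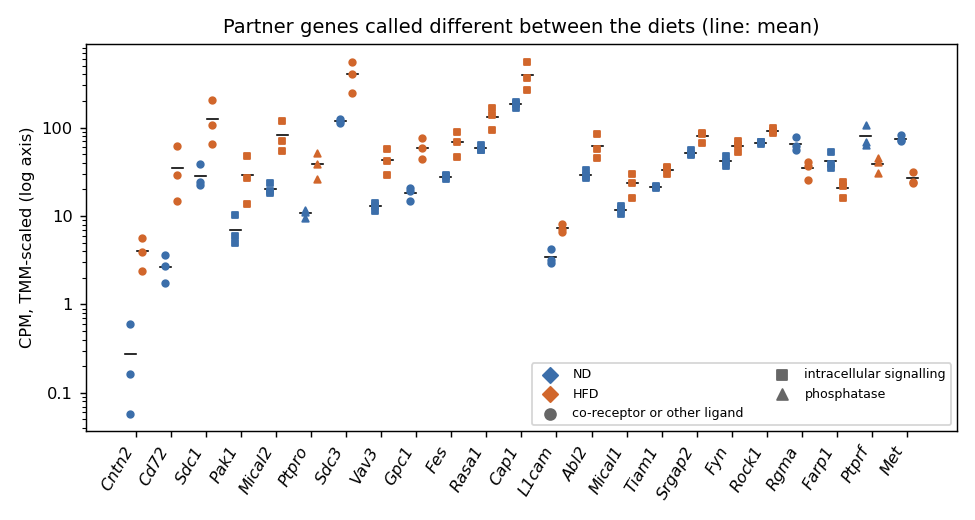
Level of the 23 called partner genes in each library, in TMM-scaled CPM on a log axis, with ND in blue and HFD in orange, a line at each mean and the marker shape for the list. The 19 genes on the left are higher on HFD and the 4 on the right (Rgma, Farp1, Ptprf and Met) are lower.

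Markers of nerve and of other cells were read in the same libraries. The 13 Schwann cell and nerve markers summed to 46.8 to 62.6 CPM under ND and 85.5 to 113 CPM under HFD, of which 69.0% came from Mbp over the 6 libraries. Mbp was called higher (log2 fold change 1.02) and Cdh19 and Gap43 lower (-1.67 and -2.10), and Sox10, a defining Schwann cell gene, had at most 20 counts. Pericyte and smooth muscle markers summed to 870 to 1016 CPM under ND and 384 to 625 CPM under HFD, with 2 of 10 called lower by edgeR, Rgs5 and Cnn1, 6 at an unadjusted p under 0.05 and 5 called by DESeq2. Progenitor and fibroblast markers had 0 of 12 called by edgeR, 0 at an unadjusted p under 0.05 and 0 by DESeq2. Mesothelial markers had 0 of 12 called by edgeR, 1 at an unadjusted p under 0.05, Krt8, and 0 by DESeq2. The part of these cells in the guidance genes was not tested.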

How the data were processed

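RNA-Seq of epididymal fat gave 1 library per sample, 3 per diet, with groups and replicate numbers as labelled. The authors deposited raw counts per gene and FPKM values for the same 54532 genes. For mapping, the paper's methods name TopHat and Cufflinks with default settings on GRCm38, whereas the submitters' processing notes name CASAVA 1.8, fastp, HISAT2 2.0.5, featureCounts 1.5.0-p3 and the human builds GRCh38 and hg38. The identifiers were mouse Ensembl genes, of which 54495 were found in GENCODE M21 (GRCm38). Both name DESeq2 1.20.0. Whether counting used strand is not given in the sources used here. The deposited counts were tested with edgeR 4.0.16 in R 4.3.3 (TMM, filterByExpr, glmQLFit with robust=TRUE, diet as the only factor, Benjamini-Hochberg over 15751 genes). Standard errors were derived from the F statistic. Levels were compared between genes by the deposited FPKM. The guidance genes, partner lists and marker lists were chosen with earlier results of these data known. Genes were named if called, highest in their role group or a ligand or receptor of a called gene, and partner genes if among the 5 smallest p-values per list and direction. Sema4a, Efna4, Epha3, Ephb2, Ephb6, Unc5c and genes that rest on 1 library were chosen after their values were seen where that rule did not name them. Also tried were DESeq2 1.42.0, voom with limma 3.58.1, other scalings and filters, a replicate block, each library left out, and limma on log2 FPKM. The tests were checked on simulated data.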

Additional observations from a re-analysis of the deposited data

How the results depend on the processing

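Each choice was changed in turn. Apart from fits that leave out 1 library, 584 of 609 alternative values kept their direction and their side of the threshold. Only a gene called in the main fit can lose the threshold. Of the 121 values of the 11 called genes, 20 did so, with 6 for Robo1, 4 for Plxna1 and 3 for Efna2. Called guidance genes numbered 7 higher and 4 lower, and partner genes 19 higher and 4 lower. With 1 library left out these counts ranged from 3 to 6, 0 to 8, 4 to 27 and 1 to 11, respectively. The share of all genes called in those fits is not given here. Without HFD replicate 1 or any 1 ND library 3 guidance genes were higher. Lower guidance genes numbered 0 without ND replicate 1 or HFD replicate 1, 1 without ND replicate 2, 2 without ND replicate 3 and 8 without HFD replicate 2. Lower partners numbered 11 without HFD replicate 2 and 1 without HFD replicate 1 or any 1 ND library. DESeq2 gave 7 lower guidance genes and 9 lower partners. Unfiltered log2 FPKM gave 2 higher and 1 lower guidance gene, and 3 higher and 1 lower partner. A log2 fold change of at least 1 left 1 lower guidance gene. The cause was not tested.

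With the replicate block 5 guidance genes were higher and 2 lower, and 14 partners were higher and 3 lower. The log2 fold change of Slit2 turned to 0.01 under the block. Same-numbered libraries did not deviate together (correlations of -0.0674, -0.0387 and -0.00212), so the numbers were not taken as pairs. With limma-voom Plxnb3 turned to 0.02.

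Directions of uncalled genes also turned when 1 library was left out, with log2 fold changes of -0.61 to 0.05 for Efnb2, -0.45 to 0.22 for Epha2, -0.15 to 0.36 for Epha4, -0.10 to 0.34 for Ephb1, -0.33 to 0.07 for Ntn4, -1.25 to 0.00 for Plxnb1, -1.28 to 1.18 for Plxnb3, -0.05 to 0.23 for Plxnd1, -0.31 to 0.09 for Robo4, -0.36 to 0.95 for Sema3e, -0.28 to 0.21 for Sema3f, -0.09 to 0.41 for Sema3g, -0.02 to 0.18 for Sema6b, -0.20 to 2.11 for Slit1, -0.31 to 0.26 for Slit2, -0.29 to 0.08 for Slit3, -0.03 to 0.12 for Unc50 and -0.01 to 0.63 for Unc5a. Of the 14 untested genes, 7 had at most 3 counts in every library, so depth limits what can be said of them.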
